A study of Mus musculus with 15 samples.

Results

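The expression of 45 genes of the actin cytoskeleton and of phagocytic motility was followed in RAW264.7 cells given silica nanoparticles. The genes were taken by symbol from a named list, with no threshold on a measured value, but the list was chosen with earlier results of these data known. All 45 were among the 13342 genes of the deposited count table, and all passed the filter on low counts that left 12798 genes tested. RAW264.7 is a macrophage line derived from a mouse tumour caused by Abelson murine leukemia virus, so that the cells are of 1 transformed line and carry no variation between animals. The 15 RNA sequencing libraries fell into 5 groups of 3. MSN500 cells received mesoporous silica of nominal size 500 nm with a dosage label of 111.8 µg/ml, and MSN-PEG500 cells received pegylated mesoporous silica of 500 nm with a label of 84 µg/ml. Stober50 cells received Stöber silica, a silica without mesopores, of 50 nm at 13.1 µg/ml, and Stober500 cells received Stöber silica of 500 nm at 16.8 µg/ml. Control cells had fresh medium without particles, and the medium of all groups held fetal bovine serum. Each dosage is worded as a fraction of the LC50, the concentration lethal to 50% of cells. The wording does not settle whether the value is the dose given or the LC50 itself. No comparison separates the particle from its dosage. Exposure is given as 24 h in one protocol and as 4 h in another. Nothing in the labels says that replicates came from separate cultures, so that p-values measure the spread between these libraries, which may be technical.

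Macrophages take up particles by pushing membrane around them on a branched meshwork of actin filaments. GTPases such as Rac and Cdc42 switch on WASP and WAVE proteins, these activate the Arp2/3 complex to start side branches, and Ena/VASP proteins and formins lengthen unbranched filaments, while profilin and cofilin supply and recycle actin monomers. Myosins, tropomyosins and crosslinkers brace and contract the network, talin, vinculin and zyxin couple it to integrins, and ezrin, radixin and moesin tie it to the membrane. Several cytoskeletal genes, the actins and vinculin among them, are known targets of serum response factor, which binds a promoter element called the CArG box and is held in check by free actin monomers through its MRTF coactivators.

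Promoters of the members were searched for the CArG box because it is the element through which actin itself feeds back on cytoskeletal genes. The box reads the same on both strands and was searched by its full consensus. In the RefSeq promoter table (GRCm38.p6), 39 of the 45 members had an entry, with 47 promoters, and the other members (Actb, Cotl1, Rac1, Rac2, Coro1b and Diaph1) had none. The box lay in the 250 bases before the start in 4 members, Myo1e at -32, Actg1 at -90, Vcl at -227 and Arpc4 at -250, counted from the start, and in 439 of all 27018 genes of the table (1.62%). These matches describe letters and not bound sites. The windows of Myo1e (chr9:70207250-70207349, plus strand), Vcl (chr14:20929148-20929247, plus strand) and Actg1 (chr11:120348566-120348595, minus strand) are printed 5′ to 3′ with the box in capitals, Myo1e and Vcl because they rose with both mesoporous particles, and Actg1 because it is the actin gene among the matches.
Myo1e: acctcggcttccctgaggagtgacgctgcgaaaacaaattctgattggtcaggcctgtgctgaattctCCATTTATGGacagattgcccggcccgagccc
Vcl: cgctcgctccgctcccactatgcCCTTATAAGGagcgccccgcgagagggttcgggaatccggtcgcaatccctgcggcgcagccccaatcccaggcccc
Actg1: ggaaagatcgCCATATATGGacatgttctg

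The libraries held 17683003 to 27253289 counts, and the 45 members together took 2.64% to 2.93% of each. All 10 macrophage markers of the list used were in the table, with summed levels of 16275 to 16844 CPM, which are counts scaled to a common library size with TMM factors, in MSN500 cells, 15383 to 16515 in MSN-PEG500 cells, 17978 to 18105 in Stober50 cells, 18274 to 18891 in Stober500 cells and 17126 to 17699 in Control cells. The sum was thus lower in both mesoporous groups than in Control cells, and 6 of the 10 markers had lower means in both, Csf1r the most (2503 and 2626 CPM in MSN500 and MSN-PEG500 cells and 3476 in Control cells), whereas Cd68 (1327 and 1247, and 957 in Control cells), Cd14, Fcgr3 and Mrc1 had higher means in both. The part of these markers in the changes that follow was not tested. Of the fibroblast markers 1 of 7 (Pdgfrb), of the epithelial markers 0 of 5, of the smooth muscle markers 1 of 5 and of the granulocyte markers 1 of 5 (S100a8) were in the table, each at a summed level of at most 1.82 CPM in any library. The lymphocyte list was represented by 1 of 6 genes (Lck), at 4.95 to 7.55 CPM, and the endothelial list by 3 of 4, at most 0.976 CPM. No pair of replicates differed by as little as sampling noise, with chi-square values per degree of freedom of 2.19 to 6.81. MSN-PEG500 replicate 3 (5.81 and 6.40 against the other libraries of its group, which gave 2.19 between themselves), Stober500 replicate 3 (5.86 and 6.81, against 2.45) and Control replicate 1 (5.39 and 4.69, against 2.86) stood apart from their groups, and MSN-PEG500 replicate 3 had the lowest level of its group in 27 of the 45 members.

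Between genes, levels were compared as the deposited FPKM, which are counts divided by exonic length and library size. In Control cells the members spanned from Actb, the main cytoplasmic actin, at 1549 ± 61.5 FPKM down to Fscn1, a bundler of filopodial filaments, at 0.229 ± 0.0775 FPKM (SD, n = 3). Over 1000 FPKM stood Actb, Vim (1025 ± 53.6) and Cfl1 (1012 ± 29.98), and the Control libraries of Vim and Cfl1 did not differ beyond their spread. Another 21 members lay between 100 and 1000 FPKM, 17 between 10 and 100, 3 between 1 and 10 and 1 under 1. Pfn1 (548 ± 24.3) and Arpc2 (536 ± 5.33) followed next and were within 1 SD of each other. At the low end, Vcl had 9.91 ± 0.164, Wasl 5.54 ± 0.417 and Actg1 3.42 ± 0.651 FPKM. The low level of Actg1, the second cytoplasmic actin, stands beside a limit of short reads: 37.4% of the 50-base windows of its transcripts also occur in other genes, 23 in number and 12 of them pseudogenes, and for Actb the share was 9.12%. The sources used here do not say how reads with several matches were counted, and the part of shared sequence in the low level of Actg1 was not tested.

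**Figure D1:**
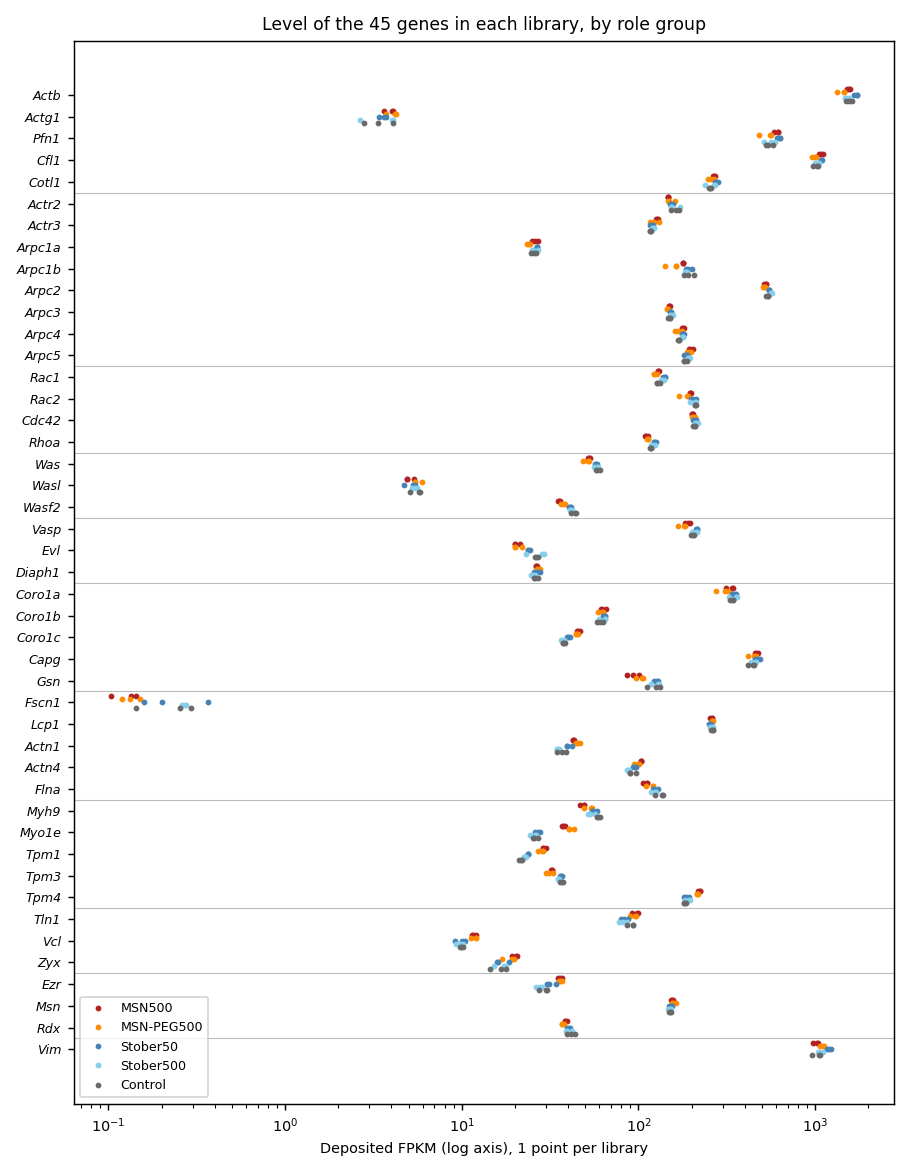
Deposited FPKM (horizontal, log axis) of the 45 members (vertical, in role order) with 1 point per library, coloured by group. Members differ far more from each other, from over 1000 FPKM for Actb to under 1 FPKM for Fscn1, than any member differs between groups.

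More than 50% of the members changed with either mesoporous particle, a few with Stober50 and none with Stober500. With MSN500, 25 of 45 members changed, 19 up and 6 down, and with MSN-PEG500 24 changed, 14 up and 10 down (edgeR quasi-likelihood test over all 12798 genes, Benjamini-Hochberg adjusted p under 0.05). Against these counts, 42.9% of all genes tested were called with MSN500 (21.6% rose, 21.2% fell) and 34.4% with MSN-PEG500 (17.5% rose, 16.9% fell). The members called made 55.6% and 53.3% of the list in these comparisons. The median log2 changes of the members were 0.08 and 0.04, beside -0.00 and -0.01 over all genes. Most members had high counts, at which small changes are called more readily, and all genes were not matched to them for level. Here and below, a share of members above that of all genes is therefore not shown to be a trait of actin genes. Myo1e was the called member that moved most with either particle, up by 51.2% with MSN500 and by 65.1% with MSN-PEG500, and no member called against Control reached a doubling or a halving. The changes were thus modest in size: the 19 rises with MSN500 ran from 7.79% (Msn) to 51.2%, and on the log2 scale the 6 falls ran from -0.12 (Tpm3) to -0.34 (Gsn). With upper quartile factors, 23 of the 25 calls with MSN500 and 23 of the 24 with MSN-PEG500 were kept. Rises then made 43.9% and 40.9% of the calls over all genes, so the split of directions depends in part on the scaling. In bulk RNA, fewer cells with a transcript and less of it per cell cannot be told apart.

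With MSN500 the rises were, by size, Myo1e, Tpm1, Ezr, Zyx, Tpm4, Coro1c, Vcl, Actn1, Actn4, Pfn1, Actr3, Arpc5, Cfl1, Tln1, Capg, Cotl1, Arpc4, Coro1b and Msn, and the falls were Gsn, Evl, Myh9, Wasf2, Flna and Tpm3. With MSN-PEG500 the rises were Myo1e, Tpm1, Ezr, Actn1, Vcl, Coro1c, Tpm4, Zyx, Vim, Actn4, Actr3, Msn, Arpc5 and Diaph1, and the falls were Evl, Arpc1b, Gsn, Tpm3, Rac2, Was, Wasf2, Vasp, Flna and Myh9. Both comparisons use the same 3 Control libraries, so that likeness between them is no independent evidence, and a call with 1 particle alone does not show that the particles differ. In 21 of the 25 calls with MSN500 (16 up, 5 down) and 15 of the 24 with MSN-PEG500 (11 up, 4 down), the call was kept whichever single library of the 2 groups was left out. Without MSN-PEG500 replicate 3, the library that stood apart, 21 members changed with MSN-PEG500, 16 up and 5 down, so that the number of falls was 5 in place of 10; Coro1b (0.11, adjusted p = 0.0495), Capg (0.12, 0.0272) and Tln1 (0.14, 0.0228) then rose. Without Control replicate 2 the count was 18, with 13 up and 5 down. Without Control replicate 1, 23 members changed with MSN500 (16 up, 7 down) and 22 with MSN-PEG500 (12 up, 10 down). Among the falls with MSN500 was then Fscn1. Shares of all genes called with these libraries left out are not given, so such shifts are not shown to be particular to the members. The 6 members that fell with MSN500 had a median of 6171.5 exonic bases, beside 3290 for the 19 that rose and 2731 for the 20 not called, though Gsn and Evl, the largest falls, had 2977 and 2695.

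With Stober50, 7 members changed and all 7 rose: Vim, Pfn1, Tpm1, Actb, Actn1, Cotl1 and Rac1, by 10.04% to 18.2%. This is 15.6% of the members beside 7.57% of all genes tested (3.85% rose and 3.72% fell), and the median member change was 0.05 beside -0.00 over all genes. Only Tpm1 and Vim kept the call whichever library was left out, and without Control replicate 1 these 2 were the only calls. With Stober500 no member passed the edgeR test, nor DESeq2 or limma-voom, and of all genes 0.00781% were called. At an unadjusted p under 0.05 stood 7 of the 45 members, beside 1526 of all 12798 genes. The Stober500 libraries of 8 members all lay above the Control libraries and those of 2 all lay below, though no member was called. The same count over all genes is not given, so these numbers are not shown to be particular to the members. An exact test of 3 libraries against 3 gives a p of 0.1 at the smallest, so lack of overlap, here and below, passes no such test at 0.05. The 95% intervals with Stober500 were taken over 43 members, leaving aside Actg1 and Fscn1 whose counts were low. They ran from -0.24 (Tln1) to 0.23 (Zyx) on the log2 scale, so that shifts beyond those bounds lie outside every interval. Over all 5 groups at once, 33 of the 45 members differed, beside 49.7% of all genes. The ratio of the highest to the lowest group mean had a median of 1.14 over the members, exceeded 1.5 in 2 (Fscn1 and Myo1e) and was under 1.1 in 10, among them the signalling GTPases Cdc42 (1.04, the smallest) and Rhoa (1.07).

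**Figure D2:**
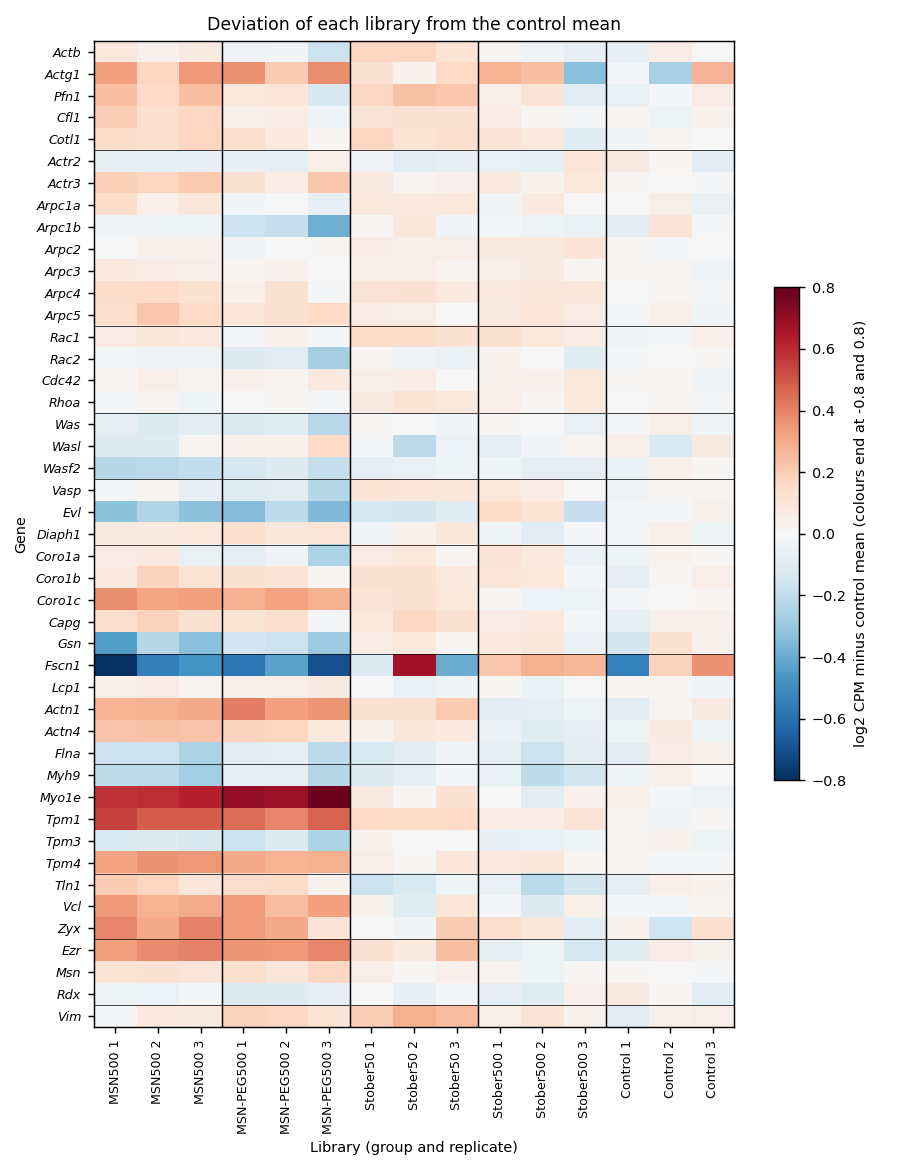
Colour gives, for each member (rows, in role order) and each library (columns, by group), the log2 CPM minus the mean of the 3 Control libraries, with colours ending at -0.8 and 0.8. Myo1e, Tpm1, Ezr, Coro1c and Tpm4 are higher in all 6 mesoporous libraries, Evl and Wasf2 are lower in all 6, and MSN-PEG500 replicate 3 is lower than the other libraries of its group in many rows.

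Of the cytoplasmic actins, Actb rose with Stober50 and Actg1 passed no test against Control in the fit of all 5 groups. Actb had 4315, 4171 and 4276 CPM in MSN500, 3989, 4000.1 and 3609 in MSN-PEG500, 4572, 4587 and 4393 in Stober50, 4113, 3984 and 3879.9 in Stober500 and 3891, 4239 and 4074 in Control libraries. All 3 Stober50 libraries lay above the Control libraries, and each of the other groups overlapped them. Its log2 change was 0.15 ± 0.043 with Stober50 (SE; adjusted p = 0.0305), 0.06 ± 0.043 with MSN500 (0.24), -0.07 ± 0.043 with MSN-PEG500 (0.202) and -0.03 ± 0.043 with Stober500 (0.853); Actb thus rose with Stober50 and passed no test with the others. Actb lost its call without Stober50 replicates 1 (adjusted p = 0.085) or 2 (0.11), without Control replicates 1 (0.145) or 3 (0.0598) and with the length trend removed (0.0818), in a range of 0.00674 to 0.145 over its alternatives. Actg1 had 11.1, 9.95 and 11.2 CPM in MSN500, 11.3, 10.2 and 11.4 in MSN-PEG500, 9.54, 8.96 and 9.86 in Stober50, 10.7, 10.4 and 6.97 in Stober500 and 8.70, 7.35 and 10.7 in Control libraries. The Control libraries of Actg1 spread widely and all groups overlapped them; the log2 change was 0.28 ± 0.13 with MSN500 (adjusted p = 0.0909), 0.31 with MSN-PEG500 (0.0692), 0.10 with Stober50 (0.716) and 0.10 with Stober500 (0.807). With MSN500, Actg1 passed in the fit of the 2 groups alone (0.28, adjusted p = 0.0442). Without Control replicate 3 it was 0.43 (adjusted p = 0.0116, range 0.0116 to 0.324 over its alternatives) with MSN500 and 0.46 (0.00984, range 0.00984 to 0.287) with MSN-PEG500.

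Of the monomer-binding members, Pfn1, Cfl1 and Cotl1 rose with MSN500, Pfn1 and Cotl1 also with Stober50, and none passed the test with MSN-PEG500 or Stober500. Pfn1, profilin, which feeds monomers to growing ends, had 1526, 1439 and 1528 CPM in MSN500, 1366, 1380.0 and 1182 in MSN-PEG500, 1448, 1517 and 1502 in Stober50, 1338, 1389 and 1211 in Stober500 and 1239.6, 1284 and 1351 in Control libraries. The MSN500 and Stober50 libraries were all above every Control library, and the MSN-PEG500 and Stober500 libraries overlapped them. Pfn1 changed by 0.21 ± 0.054 with MSN500 (adjusted p = 0.00222) and 0.20 ± 0.054 with Stober50 (0.0195), and its values were 0.02 (0.819) with MSN-PEG500 and 0.02 (0.903) with Stober500. Pfn1 lost its call without Stober50 replicate 2 (adjusted p = 0.0757) and without Control replicate 1 (0.1), in a range of 0.00235 to 0.1 over its alternatives. Cfl1, cofilin, which severs old filaments, averaged 1277 ± 30.5 CPM in MSN500 cells and 1138 ± 29.5 CPM in Control cells, a log2 change of 0.17 ± 0.037 (adjusted p = 6.6e-04); 18.3% of its 50-base windows occur in other genes, chiefly the overlapping gene Snx32 on the opposite strand, at 3.31 CPM in Control cells. Cotl1, coactosin, an actin-binding relative of cofilin, rose with MSN500 (0.15 ± 0.043, 0.00716) and with Stober50 (0.14 ± 0.043, 0.0466). With Stober50, Cotl1 lost its call without Stober50 replicates 1 (adjusted p = 0.133), 2 (0.0683) or 3 (0.0625), without Control replicates 1 (0.14), 2 (0.0547) or 3 (0.0808), with upper quartile factors (0.0588) and with the length trend removed (0.255), in a range of 0.0154 to 0.255 over its alternatives. With MSN500, Cotl1 lost its call with the length trend removed (adjusted p = 0.0844), in a range of 0.00121 to 0.0844 over its alternatives.

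The Arp2/3 complex, which starts branches, joins actin-related proteins with further subunits, and 8 of its genes were members. Calls differed between its subunits. Actr3, Arpc4 and Arpc5 rose with MSN500, and Actr3 and Arpc5 also with MSN-PEG500. Arpc1b fell with MSN-PEG500, and Actr2, Arpc1a, Arpc2 and Arpc3 passed no test against Control. Actr3, the Arp3 subunit, averaged 357 ± 4.16 CPM in MSN500, 344 ± 18.96 in MSN-PEG500 and 313 ± 2.13 in Control cells (SD, n = 3), with log2 changes of 0.19 ± 0.038 (adjusted p = 1.8e-04) and 0.14 ± 0.038 (0.00628). Actr2, the Arp2 subunit, had 784 ± 4.25, 806 ± 39.1 and 825 ± 43.7 CPM in the same groups and log2 changes of -0.07 (0.212) and -0.03 (0.628). Both subunits sit side by side in the complex, and only Actr3 passed the test; the difference between the genes was not tested. Arpc5 changed by 0.17 ± 0.036 with MSN500 (3.2e-04) and 0.13 ± 0.036 with MSN-PEG500 (0.00674), and Arpc4 by 0.14 ± 0.036 with MSN500 (0.00188) and 0.05 with MSN-PEG500 (0.295). Arpc1a (0.09, 0.088), Arpc2 (0.02, 0.615) and Arpc3 (0.06, 0.129), the other subunits, were not called with MSN500, though Arpc1a was without Control replicate 2 (0.13, adjusted p = 0.0324). Arpc4 shares 10.0% of its windows with the neighbour Ttll3 on the same strand, whose own change with MSN500 was 0.18 (adjusted p = 0.00737). Arpc1b, the isoform of the p40 subunit that prevails in blood cells, had 850.4, 845 and 731 CPM in MSN-PEG500 and 901, 1032 and 950.3 CPM in Control libraries, with replicate 3 of the treated group lowest and no overlap between the groups. It fell by 15.8% with MSN-PEG500 (-0.25 ± 0.051, adjusted p = 3.3e-04) and had -0.04 (0.561) with MSN500. Pdap1 on the opposite strand shares 16.6% of its windows and changed by -0.28 (adjusted p = 3.4e-05) with MSN-PEG500; whether strand was used in counting is not given, so the 2 genes' reads may be mixed. Actr3 lost its call without MSN-PEG500 replicate 3 (adjusted p = 0.0505), in a range of 9.6e-04 to 0.0505 over its alternatives; 26.3% of Actr3 windows occur in other genes, chiefly the pseudogene Gm8822, listed at 4.38 CPM in Control cells.

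The 4 GTPases Rac1, Rac2, Cdc42 and Rhoa did not pass the test with MSN500, where they had 95% intervals between -0.12 (Rac2) and 0.16 (Rac1) on the log2 scale. Without Control replicate 3, Rac1 was called with MSN500 (0.11, adjusted p = 0.0252). Rac1, the Rac isoform of most tissues, had 349.8, 356 and 353 CPM in MSN500, 331, 343 and 331 in MSN-PEG500, 371, 371 and 362 in Stober50, 364, 355 and 349.8 in Stober500 and 329, 331 and 343 in Control libraries. It rose with Stober50 (0.14 ± 0.035, adjusted p = 0.0139), and the MSN500, Stober50 and Stober500 libraries all lay above the Control libraries. In the authors' deposited table of exons, which did not model replicates, 1 exon of Rac1 had a score of 568.797 for Control over MSN-PEG500, with an exon log2 ratio of 1.1, that is lower in MSN-PEG500 cells. Of its 50-base windows 50.3% also belong to Daglb on the opposite strand, which had -0.01 (adjusted p = 0.902) with Stober50 but fell with MSN500, -0.51 (adjusted p = 6.0e-09), and with MSN-PEG500, -0.39 (adjusted p = 1.0e-06). Rac1 lost its call without Stober50 replicate 2 (adjusted p = 0.0516), without Control replicate 1 (0.062) and with the length trend removed (0.0546), in a range of 3.8e-04 to 0.062 over its alternatives. Rac2, the Rac isoform of blood cells, fell with MSN-PEG500 (-0.15 ± 0.043, 0.0074) to 563 ± 37.3 CPM, against 624 ± 4.79 CPM in Control cells. Rac2 lost its call without MSN-PEG500 replicate 3 (adjusted p = 0.0654), in a range of 0.00188 to 0.0654 over its alternatives. Cdc42, the switch of filopodia, had log2 changes of 0.03 (MSN500) to 0.05 (Stober500), and Rhoa, the switch of contraction, of -0.01 (MSN500) to 0.09 (Stober50), and neither passed a test.

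Among the proteins that switch on Arp2/3, Wasf2 fell with both mesoporous particles and Was with MSN-PEG500. Wasf2, the WAVE2 protein that acts below Rac, averaged 228 ± 2.27 CPM in MSN500, 239.9 ± 7.22 in MSN-PEG500, 254 ± 2.66 in Stober50, 254 ± 3.89 in Stober500 and 265 ± 8.37 in Control cells. Its log2 changes were -0.21 ± 0.036 with MSN500 (adjusted p = 2.5e-05) and -0.14 ± 0.036 with MSN-PEG500 (0.00279), and all 6 mesoporous libraries lay under the lowest Control library. Was, the Wiskott-Aldrich syndrome protein of blood cells that acts below Cdc42, fell with MSN-PEG500 (-0.14 ± 0.04, 0.00554) and had -0.09 (0.058) with MSN500. Was lost its call without Control replicate 2 (adjusted p = 0.0678), in a range of 0.00118 to 0.0678 over its alternatives. Wasl, its widely expressed relative N-WASP, passed no test, with log2 changes of -0.09 (Stober50) to 0.07 (MSN-PEG500).

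Calls of the elongators of unbranched filaments went in both directions. Evl, an Ena/VASP protein, fell to 55.6, 59.03 and 55.6 CPM in MSN500 libraries and 54.8, 60.4 and 54.6 CPM in MSN-PEG500 libraries, against 69.2, 69.01 and 71.4 CPM in Control libraries, without overlap. The log2 changes were -0.30 ± 0.062 (adjusted p = 3.2e-04) and -0.31 ± 0.062 (3.6e-04), the largest fall of a called member with MSN-PEG500. Vasp, the founding protein of that family, had -0.03 (0.64) with MSN500 and fell with MSN-PEG500 (-0.13 ± 0.04, 0.0106). Vasp lost its call without MSN-PEG500 replicate 3 (adjusted p = 0.0784) and without Control replicates 2 (0.0515) or 3 (0.0569), in a range of 0.00245 to 0.0784 over its alternatives. Diaph1, a formin, rose with MSN-PEG500 (0.10 ± 0.038, 0.0342), the smallest rise called there. Diaph1 lost its call without MSN-PEG500 replicate 1 (adjusted p = 0.0902), without Control replicates 1 (0.0818) or 3 (0.1), with upper quartile factors (0.135) and in a fit of the 2 groups alone (0.0622), in a range of 0.018 to 0.135 over its alternatives.

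Coronins, which trim branched networks, and the cappers Capg and Gsn split by gene. Coro1c rose with both mesoporous particles, to 453 ± 9.28 CPM in MSN500 and 440.4 ± 7.06 CPM in MSN-PEG500 cells, against 358 ± 3.66 CPM in Control cells. The changes were 0.34 ± 0.034 (adjusted p = 7.5e-09) and 0.30 ± 0.034 (1.0e-07), and each of the 6 libraries exceeded every Control library, as did those of Stober50, where the value was 0.10 (0.0654). Coro1a, the abundant coronin of blood cells, passed no test against Control, with 0.03 (0.679) and -0.12 (0.0808), and Coro1b rose with MSN500 (0.12 ± 0.042, 0.0189). Without MSN-PEG500 replicate 2, Coro1a was called with MSN-PEG500 (-0.15, adjusted p = 0.0331). Coro1b lost its call without MSN500 replicate 2 (adjusted p = 0.118), without Control replicate 1 (0.11), with upper quartile factors (0.0668) and with the length trend removed (0.0929), in a range of 0.00688 to 0.118 over its alternatives; it shares 10.9% of its windows with Ptprcap on the same strand. Capg, a macrophage capping protein that does not sever, rose with MSN500 (0.15 ± 0.043, 0.00669), whereas Gsn, gelsolin, which severs and caps, fell. Capg lost its call without Control replicate 1 (adjusted p = 0.0522), in a range of 0.00277 to 0.0522 over its alternatives. Gsn had 264, 307 and 285 CPM in MSN500, 324, 319 and 293 in MSN-PEG500 and 325, 388 and 367 in Control libraries, so that every mesoporous library lay under the lowest Control library. It fell by 20.8% with MSN500 (-0.34 ± 0.061, 1.6e-04) and fell by 13.4% with MSN-PEG500 (-0.21 ± 0.061, 0.0122). With MSN-PEG500, Gsn lost its call without MSN-PEG500 replicate 3 (adjusted p = 0.0915) and without Control replicates 2 (0.0904) or 3 (0.0542), in a range of 3.5e-04 to 0.0915 over its alternatives.

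Of the bundling and crosslinking members, both alpha-actinins rose and filamin fell with the mesoporous particles. Actn1 had 166, 167 and 169 CPM in MSN500, 182, 172 and 175 in MSN-PEG500, 148, 149 and 158 in Stober50, 129, 129 and 134 in Stober500 and 128, 139 and 144 in Control libraries. The mesoporous and Stober50 libraries were all above the Control libraries, and Actn1 rose with all 3 of these particles, by 0.29 ± 0.042 (adjusted p = 2.6e-06), 0.36 ± 0.042 (8.4e-08) and 0.15 ± 0.042 (0.0264). With Stober50, Actn1 lost its call without Stober50 replicate 3 (adjusted p = 0.0931) and without Control replicate 1 (0.181), in a range of 0.0124 to 0.181 over its alternatives. Actn4, the second alpha-actinin, rose by 0.23 ± 0.038 with MSN500 (2.0e-05) and 0.15 ± 0.038 with MSN-PEG500 (0.00391). Flna, filamin A, which joins crossing filaments, had 1084, 1083 and 1026 CPM in MSN500, 1154, 1159 and 1056 in MSN-PEG500, 1123, 1148 and 1199 in Stober50, 1165, 1087 and 1149 in Stober500 and 1146, 1272 and 1251 in Control libraries. It fell by 12.98% with MSN500 (-0.20 ± 0.046, 7.6e-04) with no overlap, and with MSN-PEG500 (-0.12 ± 0.046, 0.0369) with overlap. With MSN-PEG500, Flna lost its call without MSN-PEG500 replicates 1 (adjusted p = 0.0521) or 3 (0.191), without Control replicates 2 (0.232) or 3 (0.161), with no filter (0.0527), in a fit of the 2 groups alone (0.104) and with the length trend removed (0.062), in a range of 0.00607 to 0.232 over its alternatives. Lcp1, the plastin of blood cells, passed no test, with 0.05 and 0.06 with the mesoporous particles. Fscn1 rested on 6 to 28 counts per library; it had 0.321, 0.418 and 0.443 CPM in MSN500, 0.407, 0.462 and 0.365 in MSN-PEG500, 0.601, 1.09 and 0.473 in Stober50, 0.774, 0.812 and 0.802 in Stober500 and 0.420, 0.753 and 0.860 in Control libraries. Its log2 changes of -0.74 ± 0.37 with MSN500 (0.115) and -0.69 ± 0.38 with MSN-PEG500 (0.163) were not called, and its libraries overlapped those of Control. Without Control replicate 1 the value with MSN500 was -1.0 (adjusted p = 0.0364) and called.

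All 5 myosins and tropomyosins were called with both mesoporous particles, 3 up and 2 down, beside 42.9% and 34.4% of all genes. A group of 5 genes carries no test of its own, and some calls of Tpm3 and Myh9 were lost under alternatives. Myo1e and Tpm1 had the largest changes of the members called. Myo1e (chr9:70207350-70400067, GRCm38, plus strand), a long-tailed class I myosin that links actin to membranes and is known at phagocytic cups, had 188, 190.3 and 194 CPM in MSN500, 205, 203 and 217 in MSN-PEG500, 133, 127 and 137 in Stober50, 126, 119 and 129 in Stober500 and 130.4, 125 and 123 in Control libraries. The 6 mesoporous libraries lay far above the rest, and the Stöber libraries overlapped Control. The log2 changes were 0.60 ± 0.041 with MSN500 (adjusted p = 4.4e-12) and 0.72 ± 0.041 with MSN-PEG500 (1.3e-13), beside 0.07 (0.37) with Stober50 and -0.02 (0.903) with Stober500. Tpm1 (chr9:67022590-67049406, minus strand), a tropomyosin that lies along filaments and sets which myosins bind, had 200.1, 192 and 192 CPM in MSN500, 187, 179.7 and 190.2 in MSN-PEG500, 153, 152 and 153 in Stober50, 143, 143 and 147 in Stober500 and 138, 135 and 138 in Control libraries. Every treated library of Tpm1 was above every Control library, highest with the mesoporous particles. It rose by 0.50 ± 0.036 with MSN500 (8.2e-12), 0.44 ± 0.036 with MSN-PEG500 (1.9e-10) and 0.15 ± 0.036 with Stober50 (0.00829), and with Stober500 the value was 0.07 ± 0.036 (0.435). Tpm4 had 495, 507 and 503 CPM in MSN500, 488, 481 and 482 in MSN-PEG500, 409, 398 and 423 in Stober50, 417, 421 and 401 in Stober500 and 402, 393 and 392 in Control libraries. The mesoporous libraries lay above, and the Stöber libraries overlapped, those of Control. Tpm4 rose by 0.34 ± 0.035 (9.8e-09) and 0.29 ± 0.035 (2.4e-07) with the mesoporous particles; 15.7% of its windows occur in other genes, chiefly the pseudogene Gm7809.

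Tpm3 went the other way from Tpm1 and Tpm4: it fell by 7.92% with MSN500 (-0.12 ± 0.037, adjusted p = 0.0114) and fell with MSN-PEG500 (-0.18 ± 0.037, 5.1e-04). Its transcripts share 23.2% of their windows with the retrocopy Tpm3-rs7, a gene counted at 277 CPM in Control cells, which had 0.05 (adjusted p = 0.329) and -0.03 (adjusted p = 0.655), and the value of Tpm3 is therefore uncertain. With MSN500, Tpm3 lost its call without MSN500 replicate 3 (adjusted p = 0.0812), without Control replicate 2 (0.103) and with the length trend removed (0.118), in a range of 0.00286 to 0.118 over its alternatives. Myh9, the heavy chain of nonmuscle myosin IIA, the main contractile motor of macrophages, had 652, 650.1 and 622 CPM in MSN500, 718, 716 and 642 in MSN-PEG500, 701, 713 and 746 in Stober50, 726, 654 and 678 in Stober500 and 733, 773 and 750.3 in Control libraries. The MSN500, MSN-PEG500 and Stober500 libraries were all under the lowest Control library, and the Stober50 libraries overlapped. Myh9 fell by 14.7% with MSN500 (-0.23 ± 0.045, 1.7e-04) and fell with MSN-PEG500 (-0.12 ± 0.045, 0.0404); with Stober500 the value was -0.13 (0.221). With MSN500, Myh9 lost its call with the length trend removed (adjusted p = 0.0542), in a range of 8.5e-06 to 0.0542 over its alternatives, and with MSN-PEG500, Myh9 lost its call without MSN-PEG500 replicate 3 (adjusted p = 0.244), without Control replicates 2 (0.2) or 3 (0.101), with no filter (0.0564), in a fit of the 2 groups alone (0.0958) and with the length trend removed (0.0855), in a range of 0.0109 to 0.244 over its alternatives.

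Of the adaptors of integrin adhesions, 3 of 3 rose with MSN500 and 2 of 3 with MSN-PEG500, beside 21.6% and 17.5% of all genes; a group of 3 genes carries no test of its own. Vcl (chr14:20929433-21033673, plus strand), vinculin, which strengthens adhesions under load, averaged 62.9 ± 1.55 CPM in MSN500, 62.8 ± 2.19 in MSN-PEG500, 51.2 ± 3.46 in Stober50, 50.1 ± 2.61 in Stober500 and 50.8 ± 0.706 in Control cells. It rose by 0.31 ± 0.051 (adjusted p = 1.8e-05) and 0.31 ± 0.051 (2.7e-05); Ap3m1 on the opposite strand, which shares 25.1% of its windows, had 0.10 (adjusted p = 0.0872) and 0.13 (adjusted p = 0.0346). Zyx, zyxin, a sensor of tension at adhesions, had 78.1, 73.5 and 78.5 CPM in MSN500, 75.3, 73.6 and 63.96 in MSN-PEG500, 59.4, 58.4 and 68.6 in Stober50, 65.3, 63.4 and 55.9 in Stober500 and 60.9, 53.3 and 65.1 in Control libraries. The MSN500 libraries did not overlap Control, and the libraries of the other groups did; Zyx rose by 0.36 ± 0.081 with MSN500 (0.00153) and 0.25 ± 0.082 with MSN-PEG500 (0.0251). With MSN-PEG500, Zyx lost its call without MSN-PEG500 replicates 1 (adjusted p = 0.09) or 2 (0.0731) and without Control replicates 1 (0.0537) or 2 (0.0853), in a range of 0.00632 to 0.09 over its alternatives. Tln1, talin, which switches integrins on, had 1003, 983 and 931 CPM in MSN500, 959, 965 and 889.8 in MSN-PEG500, 774, 800.3 and 851 in Stober50, 836, 749.9 and 787 in Stober500 and 828, 897 and 889 in Control libraries. Only the MSN500 libraries were clear of the Control libraries. Tln1 rose with MSN500 (0.16 ± 0.047, 0.00809), and its values were 0.11 (0.0834) with MSN-PEG500, -0.11 (0.169) with Stober50 and -0.14 (0.214) with Stober500. With MSN500, Tln1 lost its call without MSN500 replicate 1 (adjusted p = 0.0505) and without Control replicate 1 (0.0553), in a range of 2.6e-04 to 0.0553 over its alternatives.

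Of the membrane linkers, Ezr and Msn rose with both mesoporous particles and Rdx passed no test with all libraries in the fit. Ezr, ezrin, had 119, 122 and 124 CPM in MSN500, 120.4, 119.8 and 123 in MSN-PEG500, 102, 98.7 and 111 in Stober50, 89.4, 92.1 and 85.2 in Stober500 and 88.2, 98.5 and 95.9 in Control libraries. All mesoporous and Stober50 libraries exceeded all Control libraries, Stober50 by a narrow margin, and the Stober500 libraries overlapped them. It rose by 29.2% with MSN500 (0.37 ± 0.047, adjusted p = 3.7e-07) and 28.7% with MSN-PEG500 (0.36 ± 0.047, 6.7e-07), and had 0.15 (0.0582) with Stober50. With Stober50 it passed without Stober50 replicate 2 (0.19, adjusted p = 0.0375) or Control replicate 2 (0.19, 0.0339). Msn, moesin, the ezrin relative that prevails in blood cells, averaged 1006 ± 7.05 CPM in MSN500, 1021 ± 23.02 in MSN-PEG500 and 933 ± 5.81 in Control cells, and rose by 0.11 ± 0.035 (0.0135) and 0.13 ± 0.035 (0.0045). With MSN500, Msn lost its call with upper quartile factors (adjusted p = 0.0534), in a range of 3.4e-04 to 0.0534 over its alternatives. Rdx, radixin, had -0.03 (0.538) with MSN500 and -0.10 (0.0764) with MSN-PEG500, where it was called without Control replicate 3 (-0.13, 0.0280).

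Vim, vimentin, an intermediate filament protein of mesenchymal and blood cells, was the single member outside the actin system. It had 2331, 2471 and 2469 CPM in MSN500, 2669, 2632 and 2528 in MSN-PEG500, 2691, 2855 and 2777 in Stober50, 2419, 2518 and 2394 in Stober500 and 2203, 2403 and 2433 in Control libraries. The MSN-PEG500 and Stober50 libraries lay above all Control libraries, Stober50 highest. Vim rose by 18.2% with Stober50 (0.24 ± 0.042, adjusted p = 6.2e-04) and by 11.2% with MSN-PEG500 (0.15 ± 0.042, 0.00552), and its values with MSN500 and Stober500 were 0.05 (0.395) and 0.06 (0.615). Among the 7 calls with Stober50 this was the one of largest size.

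**Figure D3:**
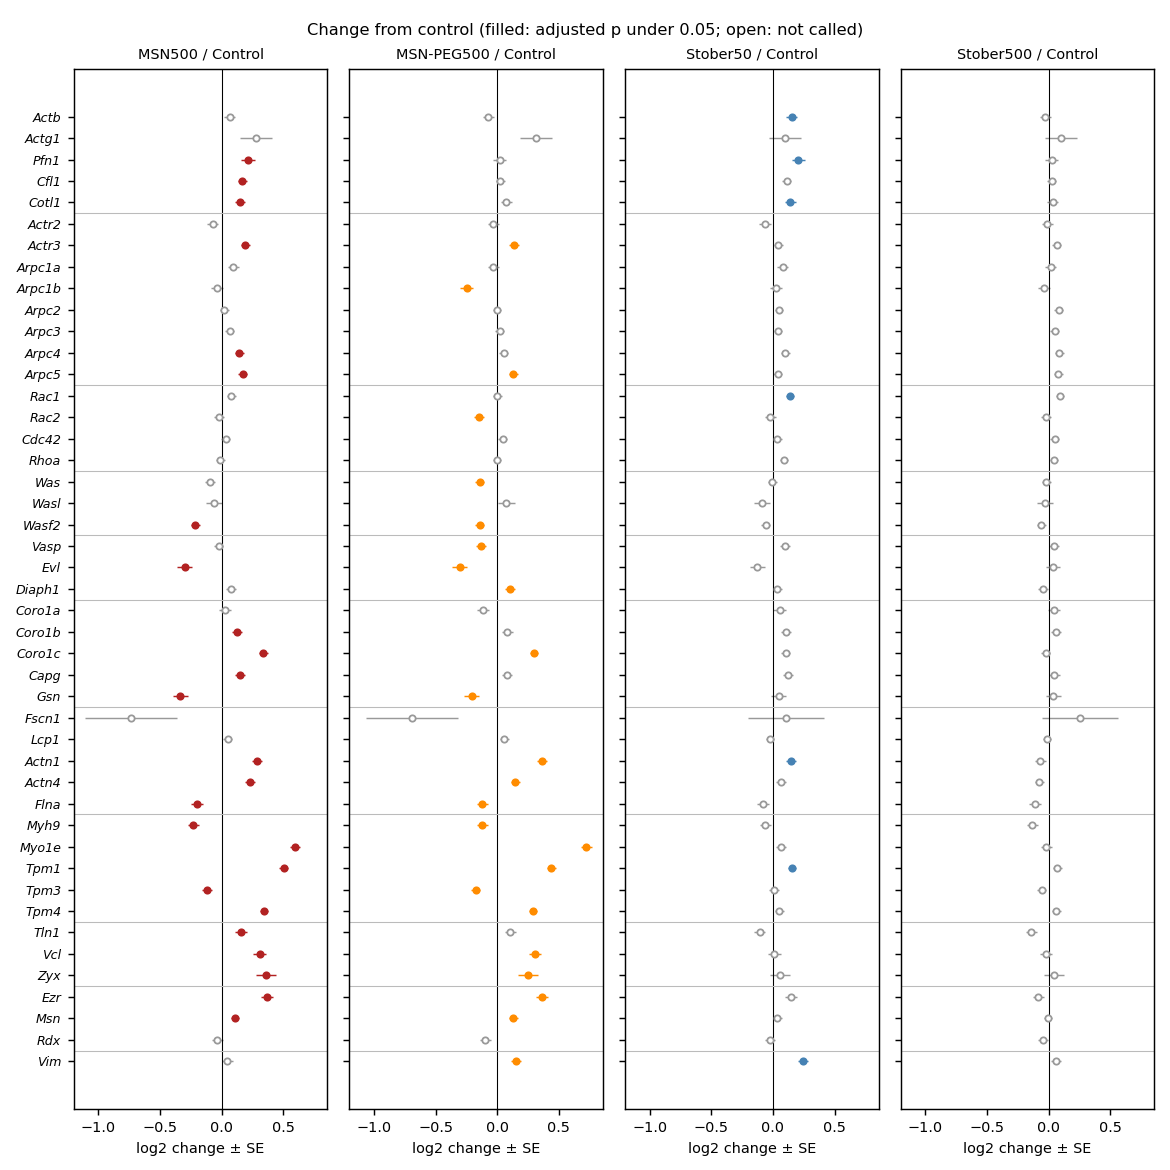
Points give the log2 change from Control (horizontal, ± SE) of each member (vertical, in role order) for the 4 particles, filled where the adjusted p was under 0.05 and open where not. Called points lie on both sides of 0 with MSN500 (25) and MSN-PEG500 (24), on the right with Stober50 (7) and nowhere with Stober500.

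**Figure D4:**
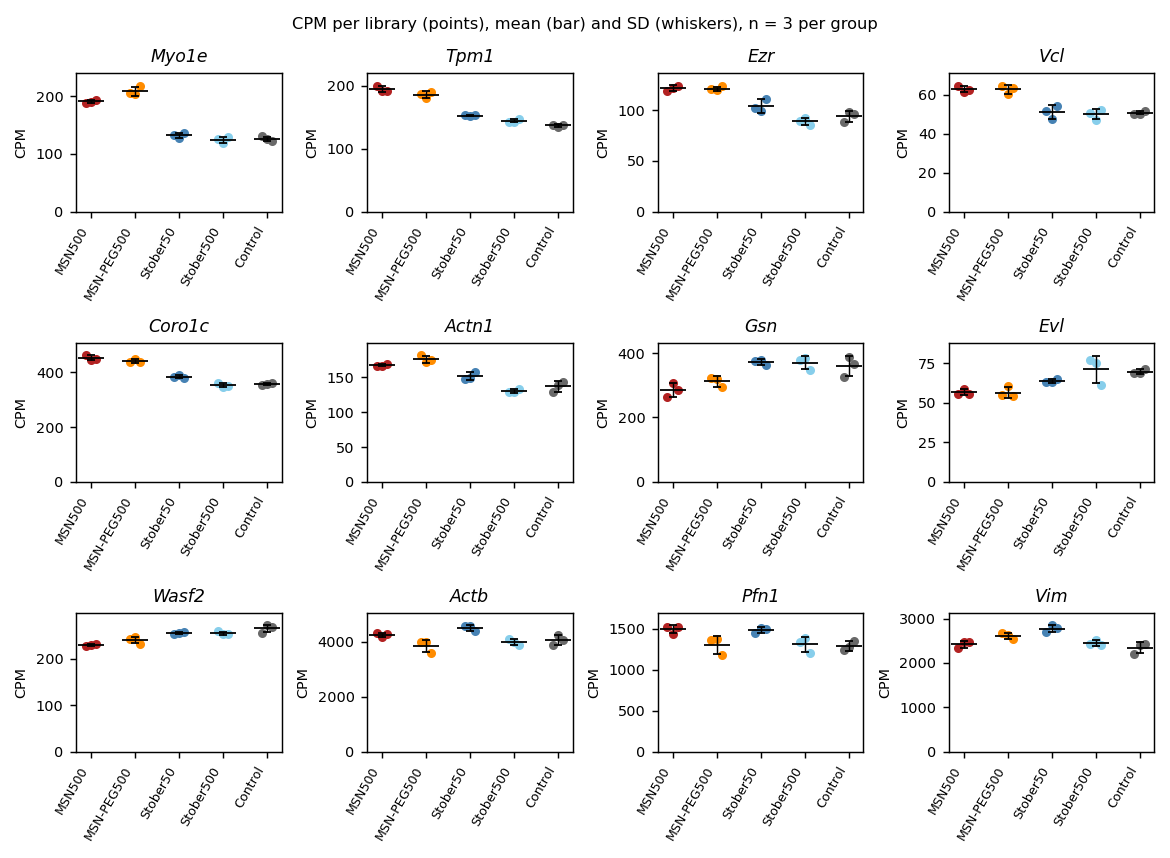
CPM of 12 members (1 panel each, axis from 0) in each library (points), with the group mean (bar) and SD (whiskers), n = 3 per group; the 12 were picked after their values were seen. The mesoporous groups stand above Control for Myo1e, Tpm1, Ezr, Vcl, Coro1c and Actn1 and under it for Gsn, Evl and Wasf2, while Actb and Vim are highest with Stober50 and Pfn1 with MSN500.

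Particles were also set against each other in 3 pairs, asking for the effect of pegylation, of mesopores and of size; dosage labels differed in each pair, and p-values were adjusted over all genes in each. With MSN-PEG500 against MSN500 (84 and 111.8 µg/ml), 4 members fell and none rose, 8.89% of the members beside 8.02% of all genes (4.1% rose, 3.92% fell). These were Arpc1b (-0.21 ± 0.051, adjusted p = 0.0114), Pfn1 (-0.19 ± 0.054, 0.0277), Cfl1 (-0.14 ± 0.037, 0.0186) and Actb (-0.14 ± 0.043, 0.048), a share of members near that of all genes. Actb averaged 3866 ± 223 CPM in MSN-PEG500 cells and 4254 ± 74.8 CPM in MSN500 cells. All 4 falls were lost without MSN-PEG500 replicate 3, the library that stood apart, where Myh9 alone was called and rose (0.16, 0.0278), and without MSN500 replicate 1 no member was called. Arpc1b lost its call without MSN500 replicate 1 (adjusted p = 0.0523) and without MSN-PEG500 replicate 3 (0.0692), in a range of 0.00378 to 0.0692 over its alternatives. Pfn1 lost its call without MSN500 replicates 1 (adjusted p = 0.11) or 3 (0.0781), without MSN-PEG500 replicate 3 (0.141) and with the length trend removed (0.0679), in a range of 0.0128 to 0.141 over its alternatives. Cfl1 lost its call without MSN500 replicate 1 (adjusted p = 0.107), without MSN-PEG500 replicate 3 (0.0774) and with the length trend removed (0.34), in a range of 0.00153 to 0.34 over its alternatives. Actb lost its call without MSN500 replicates 1 (adjusted p = 0.166), 2 (0.0747) or 3 (0.107), without MSN-PEG500 replicate 3 (0.231), with DESeq2 size factors (0.0536), in a fit of the 2 groups alone (0.0689) and with the length trend removed (0.128), in a range of 0.0238 to 0.231 over its alternatives. Myo1e was higher in MSN-PEG500 cells by 0.13 ± 0.041 and missed the threshold (0.0532). A missed threshold does not show that the particles act alike: over 43 members, called ones included, the 95% intervals ran from -0.32 (Arpc1b, called) to 0.28 (Wasl, not called).

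With MSN500 against Stober500 (111.8 and 16.8 µg/ml, same nominal size), 21 members differed, 17 up and 4 down, which is 46.7% beside 39.4% of all genes (19.9% rose, 19.5% fell). The rises were led by Myo1e (0.61 ± 0.041, adjusted p = 2.3e-12), Ezr (0.45 ± 0.047, 1.3e-08), Tpm1 (0.43 ± 0.036, 1.7e-10), Coro1c (0.36 ± 0.034, 2.3e-09) and Actn1 (0.36 ± 0.042, 1.0e-07). Vcl (0.33, 7.0e-06), Zyx (0.31, 0.0046) and Tln1 (0.30, 1.1e-05), the 3 adhesion adaptors, rose here as well. Tln1 averaged 972 ± 37.4 CPM in MSN500, 791 ± 43.4 in Stober500 and 872 ± 37.5 in Control cells. The other 9 rises were Actn4 (0.31), Tpm4 (0.28), Pfn1 (0.19), Cfl1 (0.14), Actr3 (0.13), Diaph1 (0.12), Cotl1 (0.12), Msn (0.11) and Arpc5 (0.09). In 15 of the 21 calls (12 up, 3 down) the call was kept whichever library was left out. Actr3 lost its call without Stober500 replicate 2 (adjusted p = 0.0503), in a range of 0.00346 to 0.0503 over its alternatives. Diaph1 lost its call without Stober500 replicate 2 (adjusted p = 0.0748) and with upper quartile factors (0.0523), in a range of 0.00369 to 0.0748 over its alternatives. Msn lost its call without Stober500 replicate 2 (adjusted p = 0.071) and with upper quartile factors (0.0571), in a range of 5.7e-04 to 0.071 over its alternatives. Cotl1 lost its call without MSN500 replicates 1 (adjusted p = 0.0758), 2 (0.052) or 3 (0.071), without Stober500 replicate 3 (0.165), with upper quartile factors (0.122), in a fit of the 2 groups alone (0.0537) and with the length trend removed (0.0519), in a range of 0.015 to 0.165 over its alternatives. Arpc5 lost its call without MSN500 replicate 2 (adjusted p = 0.194), without Stober500 replicates 1 (0.11) or 2 (0.0545), with upper quartile factors (0.17), in a fit of the 2 groups alone (0.0593) and with the length trend removed (0.0772), in a range of 0.0194 to 0.194 over its alternatives. The falls were Fscn1 (-0.99 ± 0.35, 0.0267), Gsn (-0.37 ± 0.061, 5.1e-05), Evl (-0.34 ± 0.061, 8.7e-05) and Wasf2 (-0.15 ± 0.036, 0.00116). Fscn1 lost its call without MSN500 replicates 1 (adjusted p = 0.0896), 2 (0.0558) or 3 (0.0537), without Stober500 replicates 1 (0.0531) or 2 (0.061) and in DESeq2 (0.0687), in a range of 0.0145 to 0.0896 over its alternatives. With upper quartile scaling the split was 13 up and 9 down in place of 17 and 4, so that the balance of directions in this pair depends on the scaling. Rises then made 42.3% of the 5108 calls over all genes.

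With Stober50 against Stober500 (13.1 and 16.8 µg/ml), 5 members rose and none fell, 11.1% beside 2.24% of all genes (1.41% rose and 0.828% fell). Ezr had the widest difference (0.23 ± 0.047, adjusted p = 0.00675), followed by Actn1 (0.22 ± 0.042, 0.00346), Vim (0.18 ± 0.042, 0.0154), Actb (0.18 ± 0.043, 0.0228) and Coro1c (0.13 ± 0.034, 0.0489). Ezr averaged 104 ± 6.47 CPM in Stober50 cells and 88.9 ± 3.46 CPM in Stober500 cells. Of these 5, Actn1 alone kept its call whichever library was left out, and without Stober50 replicate 2 the count was 2. Without Stober500 replicate 3, the library that stood apart, Evl was called as well and fell (-0.25, adjusted p = 0.00294). Ezr lost its call without Stober50 replicate 3 (adjusted p = 0.0598), in a range of 9.8e-04 to 0.0598 over its alternatives. Vim lost its call without Stober50 replicate 2 (adjusted p = 0.094) and without Stober500 replicate 1 (0.0758), in a range of 7.8e-04 to 0.094 over its alternatives. Actb lost its call without Stober50 replicates 1 (adjusted p = 0.0773) or 2 (0.0991) and without Stober500 replicates 2 (0.0865) or 3 (0.0567), in a range of 0.00173 to 0.0991 over its alternatives. Coro1c lost its call without Stober50 replicates 1 (adjusted p = 0.0994), 2 (0.177) or 3 (0.068), without Stober500 replicates 1 (0.0659), 2 (0.19) or 3 (0.0767), with upper quartile factors (0.0774) and in a fit of the 2 groups alone (0.0945), in a range of 0.00226 to 0.19 over its alternatives.

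A wider list of 139 other genes of the actin system was counted beside the members, of which 120 were in the table and 119 were tested. With MSN500, 69 of them changed (35 up, 34 down), with MSN-PEG500 64 (41 up, 23 down), with Stober50 12 (8 up, 4 down) and with Stober500 none by edgeR or limma-voom and 1 by DESeq2. At an unadjusted p under 0.05 with Stober500 stood 13 of the 119, beside 1526 of all 12798 genes. The shares were 58.0%, 53.8%, 10.1% and 0% of the genes tested, beside 42.9%, 34.4%, 7.57% and 0.00781% of all genes, and the median log2 changes were 0.00, 0.03, 0.02 and -0.01. With upper quartile scaling the split with MSN-PEG500 was 34 up and 29 down and that with Stober50 7 up and 6 down. Cyfip2, a subunit of the WAVE complex, had 52.2 ± 1.97 CPM in MSN500 cells and 15.7 ± 1.04 CPM in Control cells, a log2 change of 1.74 with MSN500, and 1.47 with MSN-PEG500, larger than that of any member. Lasp1, an adaptor of actin at adhesions, rose with 3 particles, by 0.86 with MSN500, 0.80 with MSN-PEG500 and 0.23 with Stober50, and so did Plek, the pleckstrin of blood cells, by 0.80, 0.82 and 0.17. Nckap1, a further WAVE subunit, rose by 0.83 and 0.71 with the mesoporous particles at a low level, with 3.42 ± 0.386 CPM in MSN500 cells and 1.95 ± 0.677 CPM in Control cells. On the side of the falls with MSN500 stood Ssh2 (-0.81), a phosphatase that activates cofilin, Abi3 (-0.80), an Abi family partner of WAVE, Pak1 (-0.65), a kinase driven by Rac and Cdc42, and Inf2 (-0.48), a formin. With MSN-PEG500 the widest falls were Abi3 (-0.56), Pak1 (-0.47), Ssh2 (-0.44) and Aif1 (-0.40), an actin-bundling protein of macrophages. With Stober50, Lpxn (0.27), a paxillin relative, and Arhgdia (0.17) were among the rises, and Diaph2 (-0.17), Add3 (-0.16) and Dock10 (-0.15) were among the 4 falls.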

How the data were processed

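The 15 libraries (TruSeq, single reads of 50 bases) were aligned with Novoalign 2.08.03 to GRCm38/mm10, and DESeq2 and limma 3.28.21 are also named, per the submitters' processing notes. The deposited counts give, per the file headers, the reads whose alignment shares 1 base or more with the gene; the headers do not say whether strand was used. The deposited FPKM are those counts scaled by the authors to exonic length and library size. The authors' deposited log2 ratios and scores (-10 log10 of an adjusted p) served for the exon values of Rac1 alone, and the regularized log values were not used. No column of another sample was present.

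The deposited counts were tested with edgeR 4.0.16 in R 4.3.3 (filterByExpr, TMM factors, robust quasi-likelihood fit of all 15 libraries with 10 residual degrees of freedom, two-sided). P-values were adjusted by Benjamini-Hochberg over the 12798 genes tested and called under 0.05; every adjusted p without another tool beside it comes from this fit. CPM use TMM-scaled library sizes; errors of means are SD over 3 libraries and errors of log2 changes are SE. Totals of 17683003 to 27253289 counts give a floor of 3 counts at 0.110 to 0.170 CPM, and floors cover counting error only. The scripts were tested on simulated data. The alternatives for each result were DESeq2 size factors, upper quartile factors, no filter, DESeq2 1.42.0, limma-voom (limma 3.58.1), a fit of the compared groups alone, the replicate number as a block, a trend over gene length removed, and each library of the compared groups left out in turn. Shared sequence is the share of a gene's 50-base transcript windows (GENCODE M21) that also occur in another gene, on either strand. Positions are on GRCm38.

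The members and all gene lists were chosen with earlier results of these data known. In comparisons with Control, called members among the 20 with the largest change were named, with Actb and Actg1 always; between particles, those among the 10 largest; of the other actin genes, those among the 4 largest rises and 4 largest falls, of which 1 gene is not reported here. Levels per library are given for the 6 largest changes of each comparison with Control, for Actb and Actg1 and for the highest and lowest member. All other called members, and values per library beyond that rule, were added to account for every member.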

Additional observations from a re-analysis of the deposited data

Results flagged for a closer look

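The deposited exon score of 568.797 of Rac1 for Control over MSN-PEG500, given above, comes from a column that none of the edgeR comparisons uses. The score is -10 log10 of the authors' adjusted p for the exon that differs most within a gene, so that 13 stands for 0.05. The exon lies at chr5:143527761-143528032 (GRCm38), and its deposited log2 ratio of 1.1 means a lower level in MSN-PEG500 cells, while the deposited log2 ratio of the whole gene was -0.01. In the authors' deposited table Rac1 also had exon scores of 836.6 for MSN-PEG500 over MSN500, 1138.89 over Stober50 and 586.185 over Stober500, with exon log2 ratios of -1.13, -1.27 and -1.06, and a score of 0 in the comparisons without MSN-PEG500. No other member passed 13 in any of the authors' comparisons, whereas of all 13341 genes 161 (1.21%) passed it for Control over MSN-PEG500 and 29 (0.217%) for Control over MSN500. The deposited scores did not model replicates, and the part of MSN-PEG500 replicate 3 in them was not tested.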

How the results depend on the processing

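Of the 93 log2 changes named for single members, 709 of 744 values under other settings and 467 of 558 with a library left out kept their direction and their side of the threshold; 34 and 85 lost the call, and 1 and 2 gained it. Reversals were confined to uncalled values: Actg1 with Stober50 was -0.014 without Control replicate 2 (range -0.014 to 0.24 with a library left out), Actb with Stober500 was 0.0076 without Control replicate 2 (range -0.058 to 0.0076), and Actg1 with Stober500 was -0.0052 without Stober500 replicate 1 and -0.015 without Control replicate 2 (range -0.015 to 0.26). The members changed with Stober50 numbered 12 in DESeq2, against 7, and those changed with MSN-PEG500 against MSN500 numbered 7 with the replicate block and 2 with the length trend removed, against 4; the cause was not tested. The other actin genes changed with Stober500 numbered 1 in DESeq2, against 0. With a library left out, members changed numbered 23 to 27 with MSN500, 18 to 24 with MSN-PEG500, 2 to 7 with Stober50, 0 with Stober500, 0 to 7 with MSN-PEG500 against MSN500, 17 to 20 with MSN500 against Stober500 and 2 to 4 with Stober50 against Stober500, and 30 to 36 differed among the 5 groups. Other actin genes changed numbered 63 to 69, 55 to 60, 4 to 9 and 0 to 1 with MSN500, MSN-PEG500, Stober50 and Stober500, with fewer libraries in each fit. Counts over all genes with a library left out are not given beside these. Same-numbered libraries did not deviate together (correlations of -0.16 to 0.06), but such values cannot settle whether the numbers pair them. With the replicate block the members changed numbered 26 with MSN500, 25 with MSN-PEG500 and 10 with Stober50. They numbered 22 with MSN500 against Stober500 and 6 with Stober50 against Stober500, and 34 differed among the 5 groups. Each of these counts was above that of the fit without the block, and calls over all genes were more numerous too. With the block these were 5633 for MSN500, against 5489, 4546 for MSN-PEG500, against 4397, and 1151 for Stober50, against 969. Between particles they were 1246 for MSN-PEG500 against MSN500 (1027 without the block), 5167 for MSN500 against Stober500 (5045) and 323 for Stober50 against Stober500 (287). Over all genes, calls with Stober500 numbered 1 in edgeR, 105 in DESeq2, 9 with the block, 3 with upper quartile factors, and 2 each in limma-voom, in the fit of the groups alone and with the length trend removed; with the length trend removed they numbered 639 for Stober50, against 969, and 617 for MSN-PEG500 against MSN500, against 1027. With upper quartile factors 40.9% of the calls with MSN-PEG500 were rises, against 50.9%, and the largest shift of the median change of all genes under any setting was -0.031 (MSN-PEG500, upper quartile factors). Of the members, Fscn1 (6 to 28 counts) is limited by depth; Actg1, Rac1, Actr3, Vcl, Arpc1b and Tpm3 share over 20% of their sequence windows with other genes. With 3 libraries a group, 50-base reads and dosage tied to particle, small changes rest on a shared estimate of spread.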

Other observations

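The wider actin list can also be read by class of gene. With MSN500, 0 of the 9 formins and elongation factors tested rose and 5 fell, and 0 of the 9 kinases and phosphatases of actin rose and 4 fell. With MSN-PEG500 the same classes had 2 up and 1 down, and 1 up and 3 down. Regulators of Arp2/3 and WAVE had 4 up and 8 down of 19 with MSN500 and 4 up and 4 down with MSN-PEG500. Bundling, crosslinking and adaptor proteins had 8 up and 3 down of 17 with MSN500 and 8 up and 2 down with MSN-PEG500. Adhesion and podosome adaptors had 6 up and 3 down of 17 with MSN500 and 8 up and 4 down with MSN-PEG500. Myosins and light chains had 4 up and 2 down of 9 with each, and capping, severing and monomer proteins had 5 up and 5 down of 17 with MSN500 and 5 up and 4 down with MSN-PEG500. These counts stand beside the shares of all genes called, 42.9% with MSN500 (21.6% rose, 21.2% fell) and 34.4% with MSN-PEG500 (17.5% rose, 16.9% fell). Classes of so few genes carry no test of their own, and no difference between classes was tested. As above, the split of directions depends in part on the scaling.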
